A study of Homo sapiens with 8 samples.

Results

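The genes described here encode the proteins of the cytosolic ribosome. They were chosen by symbol (RPL or RPS followed by a number, with the usual A, L or X endings, and RPLP0, RPLP1, RPLP2 and RPSA), and pseudogenes and the RPS6K kinases were left out. The rule found 84 of the 19475 entries of the expression table. Of these, 46 belong to the large subunit, among them the 3 proteins of the ribosomal stalk, 31 belong to the small subunit, and 7 are paralogues (RPL3L, RPL10L, RPL39L, RPL22L1, RPL26L1, RPL7L1 and RPS27L).

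HCT116, a human colorectal carcinoma cell line, was treated with Fusobacterium nucleatum, a bacterium found in colorectal tumours, or with PBS (Control). Per the methods of the study, cells were exposed for 2 h at 100 bacteria per cell. Poly(A) RNA was fragmented and sequenced before (input) and after pull-down with an antibody to N6-methyladenosine (IP), with 2 biological replicates of each, so that 8 libraries formed 4 groups. mRNA levels came from the 4 input libraries, and each of the 4 peak lists came from 1 replicate.

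Most ribosomal proteins are present as a single copy in each ribosome, with the stalk proteins RPLP1 and RPLP2 as exceptions, and their mRNAs are among the most abundant of a growing cell. Most of these mRNAs are short and begin with a 5′ terminal oligopyrimidine (TOP) tract, a C followed by a run of C and U, through which the mTOR pathway and LARP1 control their translation. N6-methyladenosine (m6A) is set on mRNA by a complex that holds METTL3, mostly within the DRACH consensus, of which GGAC is the best known form, and mostly near stop codons and in long exons.

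The sequences below show the GGAC match nearest the middle of peaks described later. The first 5 had the lowest listed values of all members in every list, and RPS15 had a peak in the Control lists alone. The region shown for RPL28 was in the F. nucleatum lists alone, while another region of RPL28 was in every list. Regions of RPS4X and RPL37, also in the F. nucleatum lists alone and with lower listed values, held no GGAC. Each line gives 21 bases of the GRCh37 (hg19) genome, read on the strand of the gene, with GGAC in capitals.
RPL13, chr16:89629454-89629474, plus strand: cctcctggGGACttggaatca
RPL13A, chr19:49995133-49995153, plus strand: aatgtacgGGACccaggggca
RPL4, chr15:66791692-66791712, minus strand: atcattttGGACagcttcttt
RPL41, chr12:56511382-56511402, plus strand: aagttgtgGGACtgcatgcta
RPS24, chr10:79797020-79797040, plus strand: agtcagggGGACtgcaaaggc
RPS15, chr19:1438383-1438403, plus strand: gcaggcgcGGACcaaagcgat
RPL28, chr19:55900094-55900114, plus strand: cggtttggGGACttggggtgt

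The TOP tract was looked for at the RefSeq starts (GRCh38.p14) as a C at the first base followed by at least 4 bases that are C or T. Of the 67 members with a start in the table, 47 (70.1%) had at least 1 such start, against 5.14% of the 27305 genes in the table. The lines below show examples, the first 4 from members of high mRNA level and the last from RPL13, with 14 bases before the start and the tract in capitals.
RPLP1, chromosome 15, plus strand: tataggcgcgagagCCCCTTTCCTCagctg
RPL12, chromosome 9, minus strand: cgcgcgatttccggCCTCTCggctttcggc
RPS6, chromosome 9, minus strand: agcggaagttggccCTCTTTTCCgtggcgc
RPL41, chromosome 12, plus strand: ggaacttcgcctttCTCTCggccttagcgc
RPL13, chromosome 16, plus strand: tgcggggccgcttcCTTTCCgctcggctgt
A match is a description of the letters at an annotated start, and the 5′ ends of the mRNAs in these cells were not measured.

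The label of the cells was checked against marker genes. Of 10 epithelial markers, 7 were at 1 FPKM (fragments scaled by transcript length and by the total of the library) or more, with a summed level of 4535 to 5299 FPKM per library, and CDX1 was listed at 0. The 5 leukocyte markers summed to 0.0895 to 0.345 FPKM, with CD3E listed at 0. The 6 fibroblast and endothelial markers summed to 3.90 to 5.94 FPKM, 1 of them was at 1 FPKM or more, and COL1A2 was listed at 0. Relative to Control 1, input depth was 1.11 times in Control 2, 1.23 times in F. nucleatum 1 and 0.913 times in F. nucleatum 2, estimated from ratios shared by 7 to 16 of 261 to 329 low genes. How many reads this was, and how deep the IP libraries went, could not be read from the files.

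Ribosomal protein mRNAs made up most of the highest genes by FPKM in the input libraries. FPKM is scaled by length, so a share of summed FPKM is not a share of sequenced fragments. The 77 members that are no paralogue had a median of 1754 FPKM, against 9.45 FPKM for all 11088 genes tested (those with a mean of at least 1 FPKM). Members made up 61 of the 87 genes at 1000 FPKM or more, 8 of the 10 highest genes and 63 of the 100 highest. Together the 84 members, 0.431% of the entries, held 30.5% of the summed FPKM in both Control libraries, while the treated libraries stood at 30.5% (F. nucleatum 1) and 30.8% (F. nucleatum 2). Control averaged 30.5% ± 0.00640 (SD, n = 2) and F. nucleatum-treated cells averaged 30.6% ± 0.263 (SD, n = 2), a difference of 0.138 percentage points. The groups overlapped, and the difference turned to -0.0474 without F. nucleatum 2 and to -0.00719 when the 10 highest genes were left out of the sum.

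The mRNA levels per length of these members spanned a 106-fold range, from RPS29 at 41.1 FPKM to RPL12 at 4372 FPKM, with quartiles at 1133 and 2697 FPKM. RPL12 sits at the base of the stalk, the arm of the large subunit that calls in translation factors. RPL12 measured 4460 and 4218 FPKM in Control and 4399 and 4413 FPKM in F. nucleatum-treated cells. The stalk proteins RPLP1 and RPLP0 had means of 4289 and 3857 FPKM, and the third stalk protein, RPLP2, had 1677 FPKM. The other members among the 10 highest were RPS2, RPL41, RPL30, RPS6, RPL7, RPL23 and RPS27, with means from 3364 FPKM (RPS27) to 4365 FPKM (RPS2). RPS6 is the substrate of the S6 kinases, and RPL41 is the smallest ribosomal protein, with a coding sequence of 75 nt. The first 4 of the order, RPL12, RPS2, RPLP1 and RPL41, overlapped in their values over the 4 libraries.

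At the low end, the values of RPS29 were 39.5 and 42.2 FPKM in Control and 40.1 and 42.7 FPKM in F. nucleatum-treated cells. Next among the members that are no paralogue came RPL28, with a mean of 159 FPKM, and RPL15, with a mean of 182 FPKM. The median was 1754 FPKM for the other large subunit proteins and 1654 FPKM for the small subunit, so the low values were single genes and not a subunit. Ribosomal protein mRNAs have many near-identical processed pseudogenes. Counted by name, the annotation held 1598 pseudogenes of these members, at least 1 for 78 of the 84 and 133 for RPL21. Their kind and their likeness to the gene were not measured. Reads that match both copies may have been split, so levels of single members are uncertain to that extent.

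**Figure D1:**
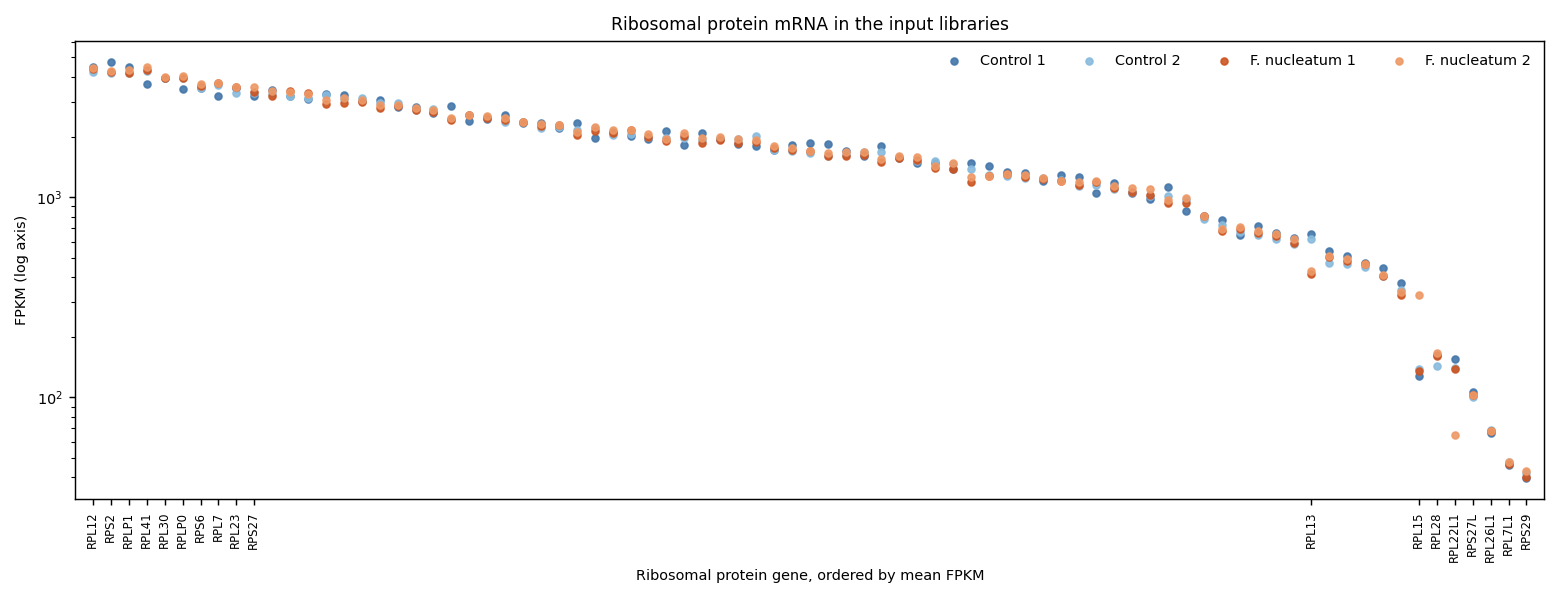
mRNA level (FPKM, log axis) of the 81 tested ribosomal protein genes in the 4 input libraries, ordered by their mean, with 1 point per library and names for the highest, the lowest and the called genes. Most genes lie above 1000 FPKM with the 4 points close together, RPL13 shows both F. nucleatum points below both Control points, and RPL15 and RPL22L1 each have 1 F. nucleatum point far from the other 3.

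The paralogues were the lowest class. RPL10L and RPL39L, known from testis, were listed at 0 in all 4 libraries, and RPL3L, known from striated muscle, was at 0.0164 to 0.0402 FPKM, so these 3 were not tested. The 4 tested paralogues had means of 125 FPKM for RPL22L1, 103 FPKM for RPS27L, 67.9 FPKM for RPL26L1 and 46.8 FPKM for RPL7L1, a protein of large subunit assembly. Each was below the gene it resembles: RPS27 had 3364 FPKM against 103 FPKM for RPS27L, and RPL7 had 3574 FPKM against 46.8 FPKM for RPL7L1.

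The next comparison asked whether F. nucleatum changed ribosomal protein mRNA levels. A limma test across all 11088 genes called 1 of the 81 tested members, RPL13, at an adjusted p under 0.05, and it was lower in F. nucleatum-treated cells. The background was 0.135% of all genes called lower and 0.667% called higher, and no member was called higher. At an unadjusted p under 0.05, 5 members were lower (RPL13, RPS15, RPL36, RPS19 and RPL8), where 6.45% of all genes were, and 0 were higher, where 7.04% of all genes were. The groups did not overlap in 18 members that were higher (22.2%, against 26.1% of all genes) and 14 that were lower (17.3%, against 21.1% of all genes). In bulk RNA, less of an mRNA in every cell and its loss from a share of the cells cannot be told apart.

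The members varied little between the groups. Their median log2 fold change (F. nucleatum over Control, on the log2(FPKM + 1) scale) was 0.0042, with quartiles at -0.05 and 0.05, against a median of 0.01 and quartiles at -0.08 and 0.11 for all genes tested. Changes within 0.2 on the log2 scale were seen for 77 members (95.1%), against 80.5% of all genes. The median log2 fold change was -0.0011 in the large subunit, 0.01 in the small subunit, -0.03 in the stalk and -0.0047 in the paralogues. The median standard error of the log2 fold change was 0.05, against 0.09 for all genes. Replicates of the same group also differed less for members. The median absolute log2 difference was 0.08 in Control and 0.04 in F. nucleatum-treated cells, against 0.10 and 0.07 for all genes. Changes were not set beside those of other genes of like level, so the part of mRNA level was not tested.

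RPL13, a large subunit protein, had 653 and 620 FPKM in Control and 415 and 427 FPKM in F. nucleatum-treated cells. Both treated libraries lay below both Control libraries, and RPL13 fell by 0.60 on the log2 scale (SE 0.05, 95% interval -0.73 to -0.47, limma adjusted p = 0.0133). The call was lost when 1 F. nucleatum library was left out (adjusted p = 0.232 without F. nucleatum 1 and 0.192 without F. nucleatum 2, limma), with no filter on low genes (0.0528) and without the variance trend (0.0541), while the log2 fold change stayed between -0.64 and -0.56 over all 12 alternatives.

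RPS15, a protein of the head of the small subunit, measured 1487 and 1378 FPKM in Control and 1197 and 1268 FPKM in F. nucleatum-treated cells. The groups did not overlap, but the change of -0.22 on the log2 scale (SE 0.06) missed the threshold (limma adjusted p = 0.261). RPL36 (-0.19), RPS19 (-0.17), the gene most often mutated in Diamond-Blackfan anaemia, and RPL8 (-0.13) likewise had both treated libraries below both Control libraries and adjusted p-values of 0.282, 0.364 and 0.342 (limma). The largest positive values with groups that did not overlap were 0.15 for RPL41, 0.12 for RPL7, 0.12 for RPS3A and 0.11 for RPL21, with limma adjusted p-values from 0.435 to 0.484. RPL41 and RPL7 stood at 0.26 and 0.21 on the log2 scale when Control 2 was left out, and at 0.03 each when Control 1 was left out.

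The widest values came from a single library. RPL15 had 128 and 138 FPKM in Control, 136 FPKM in F. nucleatum 1 and 326 FPKM in F. nucleatum 2. Its change of 0.66 on the log2 scale (SE 0.38, limma adjusted p = 0.490) became 0.03 without F. nucleatum 2, and without F. nucleatum 1 it became 1.28 and passed the threshold (limma adjusted p = 0.0498). RPL22L1, the paralogue of RPL22, showed the opposite: 156 and 140 FPKM in Control, 138 FPKM in F. nucleatum 1 and 64.9 FPKM in F. nucleatum 2. Its change of -0.64 on the log2 scale (SE 0.33, limma adjusted p = 0.456) became -0.10 without F. nucleatum 2. These were the 2 members whose F. nucleatum libraries differed by over 0.5 on the log2 scale.

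The 5 members with an unadjusted p under 0.05 had GC-rich coding sequences, from 58.2% (RPS19) to 63.0% (RPS15), against a median of 50.9% over the 81 members. This was seen after the changes were known, so it is given as a description. The members were then divided into 3 equal classes of coding GC content, also after the changes were known. In the class of highest content (over 53.9%), 9 of 27 (33.3%) were lower with no overlap and 2 (7.41%) were higher, against 28.0% and 23.0% of all genes in that range. In the middle class, 2 of 27 (7.41%) were lower and 6 (22.2%) were higher, against 18.6% and 26.7% of all genes. In the class of lowest content (up to 47.7%), 3 of 27 (11.1%) were lower and 10 (37.0%) were higher, against 13.3% and 29.8%. The top share depends on where the class begins. A cut at 57%, written first and with the GC content of the 5 lower members in view, put 8 of 15 members (53.3%) among the lower, against 29.98% of all genes above that cut. No test was made on these shares. Over the 81 members, which share the 4 libraries, Spearman's rho between coding GC and log2 fold change was -0.27 and Pearson's r was -0.15, beside -0.16 and -0.10 over 10967 genes. Each library was also corrected for the GC content of the whole canonical transcript, which is not that of the coding sequence. In RPL13 the coding sequence is 633 nt of a transcript of 2187 nt. After this correction, RPL13 kept its log2 fold change at -0.60 (limma adjusted p = 0.0171). RPL8 moved to -0.08 and no longer had an unadjusted p under 0.05 (0.113 in the limma fit). RPS15 moved to -0.18, RPL36 to -0.16 and RPS19 to -0.16, with unadjusted p-values of 0.0143, 0.0205 and 0.0475 in that fit. On the positive side, RPL41 moved to 0.12 and RPL7, RPS3A and RPL21 to 0.08 to 0.09.

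**Figure D2:**
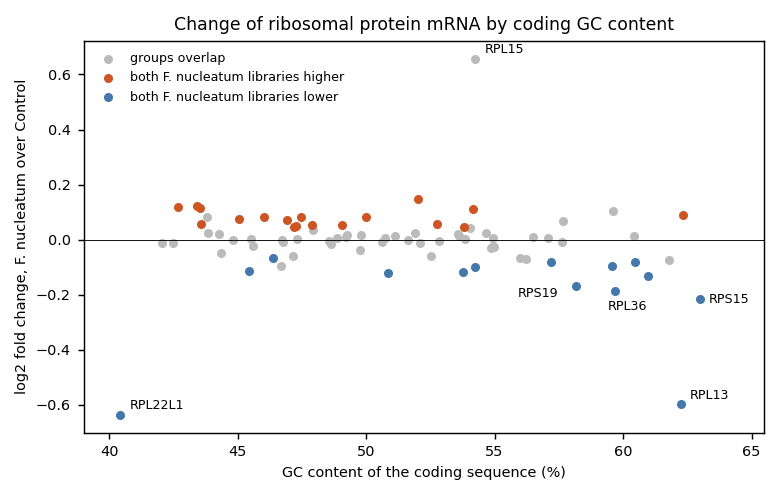
log2 fold change (F. nucleatum over Control) of the 81 tested members against the GC content of their coding sequence (%), with 1 point per gene, coloured by whether both F. nucleatum libraries lay above, below or among the Control libraries. RPL13, RPS15, RPL36 and RPS19 lie below 0 at a coding GC content of 58.2% to 63.0%.

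Other genes of the same system gave the following counts. Of the ribosomal proteins outside the symbol rule, FAU, RACK1 and RPL36AL had 0 calls in either direction at an adjusted or an unadjusted p under 0.05 in limma, with values of -0.12, -0.08 and -0.11 on the log2 scale. Of the 4 genes on that list, 3 were lower and 0 were higher with no overlap between the groups, beside 21.1% and 26.1% of all genes. Among 14 tested mRNAs of translation factors and others known for a TOP tract, limma called 0 at an adjusted p and 1 lower at an unadjusted p under 0.05 (EEF1D, -0.19), and the extremes were EEF1A1 at 0.10 and EIF3F at -0.21. With no overlap, 4 of these 14 were lower and 1 was higher. Of 28 ribosome biogenesis genes, 0 were called at an adjusted p by limma, while 13 were lower and 0 higher at an unadjusted p under 0.05, beside 6.45% and 7.04% of all genes. Of the 28, 21 were lower and 2 were higher with no overlap between the groups, beside 21.1% and 26.1% of all genes. Their median log2 fold change was -0.15, with BOP1, a processing factor of large subunit rRNA, at -0.40 (limma adjusted p = 0.0970) and NAF1 at 0.12. Of 7 regulators, 0 passed an adjusted and 1 an unadjusted p under 0.05 in limma (MTOR, -0.21), and RPS6KB1 was the highest at 0.11.

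The 78 mitochondrial ribosomal protein genes, the most alike set, had a median of 53.1 FPKM and a median log2 fold change of -0.06, beside 0.0042 for the cytosolic members. In limma, 1 of them was called lower (MRPL23, from 109 and 104 FPKM to 79.3 and 80.1 FPKM, log2 fold change -0.42, adjusted p = 0.0485). Another 10 were lower and 1 (MRPL33, 0.19) was higher at an unadjusted p under 0.05, beside 6.45% and 7.04% of all genes. Of the 78, 36 were lower and 4 were higher with no overlap between the groups, beside 21.1% and 26.1% of all genes. The difference between the cytosolic and the mitochondrial genes was not tested.

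m6A peaks were found on few ribosomal protein mRNAs. A peak in any of the 4 lists was listed for 30 of the 81 tested members (37.0%), against 83.9% of all tested genes, and a peak in every list for 20 (24.7%), against 68.7%. The other tested members, 51 in all, had none in any list. The 3 members that were not tested had none either, which left 54 of 84 without a peak. The 30 with a peak were 16 large subunit proteins, 12 small subunit proteins and 2 paralogues (RPL26L1 and RPL7L1).

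The mRNAs without a listed peak included all 3 stalk proteins (RPLP0, RPLP1 and RPLP2), RPSA, also known as the laminin receptor, and the ubiquitin fusion RPS27A. In the large subunit they also included RPL3, RPL7, RPL7A, RPL8, RPL9, RPL10, RPL10A, RPL11, RPL12, RPL15, RPL17, RPL18, RPL21, RPL23, RPL23A, RPL24, RPL27, RPL30, RPL31, RPL32, RPL34, RPL35, RPL35A, RPL37A, RPL38 and RPL39. In the small subunit they included RPS3, RPS3A, RPS7, RPS9, RPS12, RPS13, RPS15A, RPS16, RPS18, RPS20, RPS21, RPS25, RPS27 and RPS28. The paralogues without a peak were RPL3L, RPL10L, RPL39L, RPL22L1 and RPS27L. High mRNA level did not go with a peak: of the 61 members at 1000 FPKM or more, 43 had none, and the median was 1912 FPKM without and 1260 FPKM with a peak.

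The same share was set beside that of other genes of like level or length. At 1000 FPKM or more, 18 of 61 members (29.5%) and 15 of 26 other genes (57.7%) had a peak. Between 100 and 1000 FPKM, 9 of 17 members (52.9%), 404 of 554 other genes (72.9%) and 13 of 15 mitochondrial ribosomal protein genes (86.7%) had one. Between 10 and 100 FPKM all 3 members (RPS29, RPL26L1 and RPL7L1) had one, as did 86.6% of 4683 other genes. With a coding length under 700 nt, 23 of 66 members (34.8%) had a peak, against 1471 of 1944 other genes (75.7%) and 40 of 50 mitochondrial ribosomal protein genes (80.0%). These counts carry no test, since genes are not replicates, and few other genes are both this short and this abundant (6 of 12 such genes had a peak). Reads that also match a pseudogene may bear on whether a peak was listed, as they may on mRNA levels. Their part in these shares was not tested.

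The peaks of the 4 lists joined into 40 regions on these 30 mRNAs. Of them, 23 (57.5%) were in every list, against 51.5% of all 22001 regions. The 5 members with the strongest peaks were RPL13, RPL13A, RPL4, RPL41 and RPS24, whose regions were listed at 0 (a p-value too small to be written) in all 4 lists, as were 105 of the 11341 regions that were in every list. RPL4 lines the tunnel through which the new protein leaves the ribosome, and its region (chr15:66791653-66791917) lay at the stop codon. The region of RPL13 (chr16:89629379-89629768, 390 nt) had its middle in the 3′UTR and was listed at 0 in Control and in F. nucleatum-treated cells alike, so the list gave no room for a lower value there. RPL19, RPL26, RPL5, RPL22 and RPS6 completed the 10 members with the lowest listed values.

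The largest class of placed regions had its midpoints near the end of the coding sequence. Of 26 regions on the canonical transcript, 10 (38.5%) had their midpoint within 100 nt of the stop codon, against 15.8% of all placed regions. The midpoint was in the 3′UTR for 9 (34.6%, against 34.1%), in the coding sequence for 7 (26.9%, against 45.1%) and in the 5′UTR for 0 (against 4.94%). Coding sequences of members are short (median 453 nt, against 1365 nt), and the part of length in these shares was not tested. Another 14 regions were not on the canonical transcript by at least 90% of their bases. The median length was 241 nt, against 325 nt for all regions. GGAC, searched on the strand of the gene, was in 27 of the 40 (67.5%), against 72.8% of all regions and 69.1% of regions of like length.

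Between Control and F. nucleatum-treated cells, the Control lists named 23 and 22 members with a peak, and those of treated cells 24 and 26 (22.5 ± 0.707 and 25 ± 1.41, SD, n = 2). Control had 27 and 28 peaks on members, and F. nucleatum-treated cells had 34 and 33 (27.5 ± 0.707 and 33.5 ± 0.707, SD, n = 2). Both F. nucleatum lists lay above both Control lists in each count, and an exact permutation test of 2 against 2 lists cannot reach a p under 0.05. Peaks on all tested genes did not follow that order: the share of tested genes with a peak was 74.9% and 77.2% for Control (replicates 1 and 2) and 77.6% and 75.2% after treatment. The depth of the IP libraries was unknown, and its part in these counts was not tested.

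In both Control lists and neither F. nucleatum list there was 1 region (2.50% of 40, against 2.64% of all regions), on RPS15. It was listed at 1.6e-43 in Control 1 and 7.9e-24 in Control 2. The region (chr19:1438363-1438512) covered the start of the gene: 21.3% of it lay upstream of the canonical transcript, 22.0% in its exons and 56.7% in its introns, and the GGAC shown above has its A at 1438393, just before the annotated start at 1438395. Its GC content was 63.3%, and the median of all regions in the Control lists alone was 61.7%. RPS15 mRNA had the values given above, with a log2 fold change of -0.22.

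In both F. nucleatum lists and neither Control list there were 5 regions (12.5% of 40, against 2.38% of all regions). Of these, 2 had low listed values. On RPS4X, the X-linked form of a small subunit protein, a region at the stop codon (chrX:71492453-71492602) was listed at 4e-63 and 1e-107. On RPL37, a region at the stop codon (chr5:40832525-40832644) was listed at 2.5e-33 and 4e-26. Neither of these regions held a GGAC.

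The other 3 regions of the F. nucleatum lists were weaker. An RPL36A region of 60 nt (chrX:100646807-100646866), 93.3% of it in an intron, was listed at 2.9e-08 and 8.9e-10. A 3′UTR region of RPL7L1 (chr6:42857305-42857544) was listed at 3.2e-06 and 0.00017, and a 3′UTR region of RPL28 (chr19:55899916-55900156), which holds the GGAC shown above, at 0.00025 and 0.0032. RPL7L1, RPL28 and RPL36A each had another region in every list. The median GC content of these 5 regions was 40.0%, beside 45.0% for all regions in the F. nucleatum lists alone and 49.0% for the members' regions in every list.

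The mRNAs behind these 5 regions showed no called change. Their log2 fold changes were -0.0032 for RPS4X (2563 and 2391 FPKM in Control, 2447 and 2493 FPKM in F. nucleatum-treated cells), -0.12 for RPL37, -0.06 for RPL36A, 0.0029 for RPL7L1 and 0.10 for RPL28, with limma adjusted p-values from 0.399 to 0.988.

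Within the 23 regions in every list, both F. nucleatum values were below both Control values in 6 (RPL22, RPL5, RPL26, RPL29, RPL7L1 and RPS6), where 15.7% of all such regions were, and above in 3 (RPL27A, RPL28 and RPL36), where 18.9% of all such regions were. Wide gaps were seen on RPS6 and RPL22. The RPS6 region at the stop codon was listed at 5e-30 and 1.3e-33 in Control and at 1e-136 and 1e-157 in F. nucleatum-treated cells. The Control values of RPL22 were 1e-135 and 1e-146, and those after treatment 1e-284 and 1e-243. RPL5, which carries the smallest rRNA of the large subunit with RPL11, went from 1e-168 and 1e-101 to 0 in both. RPL36 stood the other way, with Control values of 1e-120 and 7.9e-60 and treated values of 1.3e-59 and 4e-49. A listed value moves with the number of reads as well as with enrichment, so these are values of the lists and not amounts of m6A.

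Of the remaining 11 regions, 2 were in 3 lists (RPL28 and RPL26L1) and 9 in 1 list (22.5%, against 25.6% of all regions). A low listed value did not ensure a peak in the replicate. The region of RPS19 was listed at 1e-85 in F. nucleatum 2 and in no other list, and the region of RPS2 at 3.2e-23 in Control 1 and in no other list.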

How the data were processed

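HCT116 cells were profiled in 4 input and 4 IP libraries, 2 per group, grouped by their labels. The authors trimmed adapters (cutadapt in the methods, Trim Galore 0.3.3 in the submitters' processing notes) and aligned reads to hg19 with HISAT2 2.1.0. The deposited expression values are FPKM, computed by the authors with StringTie from the input libraries. No counts were given, so the count model of the methods was not usable. The deposited peak lists are separate for each replicate, with 1 value per peak, read as the authors' p-value. The methods name MACS2, and the layout with exon blocks is one exomePeak writes. The program behind the lists is therefore not certain.

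The members, the other gene lists and the coding GC classes were chosen with earlier results of these data known. The groups' mRNA levels were compared in limma 3.58.1 under R 4.3.3 (eBayes with trend, two-sided), on log2(FPKM + 1), which understates changes of low genes. All 11088 genes averaging 1 FPKM or more over the input libraries entered the fit, with Benjamini-Hochberg adjustment over all of them and calls at an adjusted p under 0.05. Peaks on the same strand sharing at least 1 bp of exon block were joined. All 122 peaks of members shared at least 1 bp with an annotated exon of the named gene. That exon could belong to any of its transcripts, and several regions lay mostly in introns or outside of the canonical transcript. Annotation and sequence came from GENCODE release 44 on GRCh37, 1-based, and promoters from RefSeq (GRCh38.p14). A region was placed when at least 90% of its bases lay on the canonical transcript, by its midpoint. Of the sequence matches, the GGAC nearest the middle is shown. The limma fit was tested on simulated data and the joining rule on made-up peaks. The steps other than limma ran in Python 3.11.15.

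Genes named are the members past the threshold, the 5 largest changes in each direction, the 10 highest and 8 lowest levels, all paralogues, members with a region in 1 group alone or with no peak, and the 10 lowest listed peak values. A few genes that the rule would name are not reported here. From the other lists, genes past the threshold are named, or otherwise the largest change in each direction, and EEF1D, MTOR, MRPL33 and RPL8 were named after their values were seen, as were the members with a low value in a single list. Alternatives were another pseudocount, no filter, 2 rescalings, a GC correction, no trend, a replicate block, stricter peak values and overlap, peaks given by position, leaving out each library and, added after seeing the data, another cut on coding GC.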

Additional observations from a re-analysis of the deposited data

How the results depend on the processing

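The 1 member called lower (RPL13) and the 0 called higher stood under another pseudocount, both rescalings, the GC correction and the replicate block. The number called lower was 0 with no filter and 0 without the variance trend, and leaving out 1 library gave 0 to 1 lower and 0 to 2 higher. The labels do not say whether samples of the same replicate number were paired. Deviations from the group mean had a correlation of 0.0243 between Control 1 and F. nucleatum 1 over the tested genes, which cannot settle it. The replicate block gave 0 members higher and 1 lower, with RPL13 at -0.60 (limma adjusted p = 0.0170), and with the GC correction as well 0.0360. Over all genes, calls numbered 89, 40 with no filter, 60 without trend, 90 with the block, and 16 (without F. nucleatum 2) to 284 (without Control 2).

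Regions in the Control lists alone numbered 1 to 3 and those in the F. nucleatum lists alone 6 to 8 when 1 list was left out. The mean number of members with a peak, higher by 2.5 in F. nucleatum-treated cells, was higher by 1.5 for listed values of at most 1e-05 and by 1.5 when peaks were given by position, and by 1.5 to 3.5 with 1 list left out. The difference in the share of summed FPKM was -0.00719 points without the 10 highest genes and -0.0474 to 0.324 points with 1 library left out. RPL7L1, at 0.0029 on the log2 scale, changed sign under median-ratio scaling (-0.0090), the GC correction (-0.0257), the block with GC correction (-0.0257) and with 1 library left out (-0.0209 to 0.0267). RPL36A ranged from -0.122 to 0.0037 and RPS4X from -0.0534 to 0.0471 with 1 library left out. The cause was not tested for any of these. The share of members lower with no overlap in the top class of coding GC was 33.3% by equal classes and 53.3% with the cut at 57%, a setting chosen after seeing the data. With 2 libraries per group and unknown depth, small differences were not detectable, and a member without a listed peak is not shown to lack m6A.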
